A study of Mus musculus with 8 samples.

Results

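The melanocyte pigment genes were 10 genes by which melanocytes make melanin: Tyr, Tyrp1, Dct, Pmel, Mlana, Slc45a2, Oca2, Trpm1, Mitf and Kit. They were named by symbol, a choice made with earlier results of these data known, and every probe set annotated to exactly 1 of these symbols was taken, which gave 20 of the 45037 probe sets on the array that were not controls. The tissue was belly skin of mice aged 8 months. The transgenic group held 4 animals that carried hurpin, a human inhibitor of cathepsin L of the serpin family: females 7 and 84 and males 11 and 17. The wildtype group held 3 animals: males 26 and 28 and female 29, whose RNA was on 2 arrays that were averaged. The strain, the promoter behind the transgene and the number of founder lines are not given in the sources used here.

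Melanocytes are pigment cells of neural crest origin. In haired mouse skin they sit mainly in the hair follicle, and they make melanin while the follicle grows and hand it to the keratinocytes of the hair shaft. Tyrosinase and its relatives turn tyrosine into melanin inside the melanosome, an organelle related to the lysosome, on fibrils of the PMEL protein. The transcription factor MITF switches on many of these genes, and the receptor KIT keeps melanocyte precursors alive.

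Levels are given as log2 of signal intensity plus 21.8, on which an intensity of 0 stands at 4.45. Of the 20 probe sets, 17 had a mean above 6.45, the level set as the filter over all probe sets, and they covered all 10 genes. The other 3, 2 of Trpm1 and 1 of Kit, lay below it. Intensities summed to 34785081 to 37857733 per array, and the trimmed mean was scaled to 500.003 on each. Between the arrays of wildtype 29 the median absolute difference was 0.24 on the log2 scale. Gapdh carries control probe sets at its 3' and 5' ends as a check of RNA quality, and their ratio was 13.8 and 17.2 in transgenic 7 and 84, 1.45 in transgenic 11 and 4.68 in transgenic 17, against 0.927 to 1.41 on the wildtype arrays. Every transgenic array had a higher ratio than every wildtype array, so group and ratio cannot be fully told apart. Fits with the ratio as a covariate are given beside some values below. They rest on a straight line over the ratio, and the part of RNA quality was not tested. Levels of different probe sets are not set against each other, since each binds with its own strength. In whole skin, fewer melanocytes and less RNA per melanocyte cannot be told apart.

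The levels of the melanin enzymes differed more between animals of 1 group than between the group means. Tyr encodes tyrosinase, which carries out the first and limiting step of melanin synthesis. On its most abundant probe set, 1417717_a_at, Tyr stood at 7.94, 9.03, 8.54 and 6.82 in transgenic 7, 84, 11 and 17, against 6.95, 10.28 and 9.56 in wildtype 26, 28 and 29. Transgenic 17 and wildtype 26 were the low animals, wildtype 28 and 29 the high ones, and the groups overlapped. The span from the lowest to the highest animal was 11.0-fold, which, like the spans below, is a ratio of intensity plus 21.8 and understates that of intensity. The means were 8.08 ± 0.95 in transgenic animals (SD, n = 4) and 8.93 ± 1.75 in wildtype animals (SD, n = 3), a difference of -0.85 with a standard error of 0.78 and a limma adjusted p of 0.694. The arrays of wildtype 29 gave 9.61 and 9.50, closer together than any pair of animals of 1 group.

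A second Tyr probe set, 1456095_at, stood at 5.43, 6.86, 6.57 and 4.54 in transgenic 7, 84, 11 and 17, against 5.79, 8.52 and 8.04 in wildtype 26, 28 and 29. Transgenic 17 was close to the level of an intensity of 0. Its difference of -1.60 (standard error 0.75) was the most negative of the 17 probe sets tested, with a limma adjusted p of 0.451. The third, 1448821_at, stood at 5.73, 6.57, 6.69 and 5.97 in transgenic 7, 84, 11 and 17, against 6.63, 7.60 and 6.95 in wildtype 26, 28 and 29. It did not follow the other 2 closely, and its arrays of wildtype 29 lay apart at 6.36 and 7.54. Its difference was -0.82, with an unadjusted p of 0.0486 and a limma adjusted p of 0.424.

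Tyrp1 encodes tyrosinase-related protein 1, which acts late in the synthesis of black-brown eumelanin. On 1415861_at it stood at 10.05, 10.87, 10.19 and 7.42 in transgenic 7, 84, 11 and 17, against 8.08, 11.55 and 11.15 in wildtype 26, 28 and 29. The order was that of Tyr at both ends: transgenic 17 and wildtype 26 lowest, wildtype 28 and 29 highest, over a 17.4-fold span. The means were 9.63 ± 1.52 in transgenic animals and 10.26 ± 1.90 in wildtype animals, a difference of -0.62 (standard error 0.98, limma adjusted p 0.831). The other 2 Tyrp1 probe sets gave the same lowest and highest animals, with differences of -0.67 on 1439409_x_at and -1.01 on 1415862_at (limma adjusted p 0.806 and 0.663).

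Dct encodes dopachrome tautomerase, the enzyme between tyrosinase and TYRP1, and is an early marker of the lineage. It stood at 10.28, 11.44, 11.08 and 8.60 in transgenic 7, 84, 11 and 17, against 9.11, 11.87 and 11.62 in wildtype 26, 28 and 29. Again transgenic 17 and wildtype 26 were lowest and wildtype 28 and 29 highest, over a 9.61-fold span. Its difference was -0.52 (standard error 0.80, limma adjusted p 0.830), between 10.35 ± 1.26 in transgenic animals and 10.87 ± 1.52 in wildtype animals.

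Pmel and Mlana encode proteins of the early melanosome: PMEL forms the fibrils on which melanin is laid down, and MLANA binds PMEL and takes part in its maturation. Pmel stood at 8.13, 9.83, 10.32 and 6.86 in transgenic 7, 84, 11 and 17, against 7.73, 11.15 and 10.56 in wildtype 26, 28 and 29. It had the widest span of the probe sets above the filter, 19.6-fold, with the same lowest and highest animals as Dct. Its difference was -1.03 (standard error 0.98, limma adjusted p 0.704). Mlana stood at 9.06, 9.58, 9.87 and 9.54 in transgenic 7, 84, 11 and 17, against 9.68, 11.14 and 10.32 in wildtype 26, 28 and 29. Transgenic 17 and wildtype 26 were not set apart here, and only transgenic 11 lay above the lowest wildtype animal. The means were 9.51 ± 0.33 in transgenic animals and 10.38 ± 0.73 in wildtype animals, a difference of -0.87 (standard error 0.33, unadjusted p 0.0289), which did not pass after adjustment in limma (adjusted p 0.386).

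Slc45a2 and Oca2 encode melanosome membrane proteins that set the pH and ion balance tyrosinase needs. Slc45a2 on 1451055_at stood at 7.23, 7.37, 8.11 and 7.73 in transgenic 7, 84, 11 and 17, against 7.89, 8.73 and 8.41 in wildtype 26, 28 and 29. As with Mlana, only transgenic 11 lay above the lowest wildtype animal. The difference was -0.74 (standard error 0.28, unadjusted p 0.0297, limma adjusted p 0.387), and it was -0.13 when the Gapdh ratio entered the fit. The other probe set of Slc45a2, 1437430_at, had a difference of -0.39 (limma adjusted p 0.694), which turned to 0.18 in that fit. Oca2 stood at 7.72, 8.34, 8.56 and 6.53 in transgenic 7, 84, 11 and 17, against 7.21, 8.66 and 8.48 in wildtype 26, 28 and 29. Its low animals were again transgenic 17 and wildtype 26, and the groups overlapped, with a difference of -0.33 (limma adjusted p 0.837).

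Trpm1 encodes a cation channel known from melanocytes and from bipolar cells of the retina. On its most abundant probe set, 1418935_at, Trpm1 stood at 6.95, 8.21, 8.03 and 5.19 in transgenic 7, 84, 11 and 17, against 5.57, 8.87 and 8.52 in wildtype 26, 28 and 29. The 7 animals stood in the same order as in Tyr on 1417717_a_at, Tyrp1 on 1415861_at and Dct: wildtype 28, wildtype 29, transgenic 84, transgenic 11, transgenic 7, wildtype 26 and transgenic 17, high to low. In Trpm1 the order of wildtype 26 and transgenic 17 is not read, because transgenic 17 stood near the level of an intensity of 0. The span was 3.68 on the log2 scale, given without a fold for the same reason. The group difference was -0.56 (limma adjusted p 0.843). The probe set 1437445_at gave another order, with wildtype 29 second lowest at 6.29, but the arrays of that animal read 5.60 and 6.97. Its difference was -0.16 (limma adjusted p 0.921).

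Below the filter, Trpm1 on 1440241_at stood at 5.48, 5.60, 5.94 and 5.80 in transgenic 7, 84, 11 and 17, against 6.45, 6.94 and 7.05 in wildtype 26, 28 and 29. Here the groups did not overlap. The difference of -1.11 (standard error 0.30, unadjusted p 0.00467) had a limma adjusted p of 0.351 in the fit without the filter. The fourth probe set, 1437531_at, stood at 5.16, 5.24, 5.11 and 4.73 in transgenic 7, 84, 11 and 17, against 4.73, 7.14 and 5.89 in wildtype 26, 28 and 29. Most of these values were near that of an intensity of 0, and the groups overlapped (difference -0.86, limma adjusted p 0.623). Wildtype 28 and 29 were the highest animals on 3 of the 4 probe sets of Trpm1, all but 1437445_at.

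**Figure D1:**
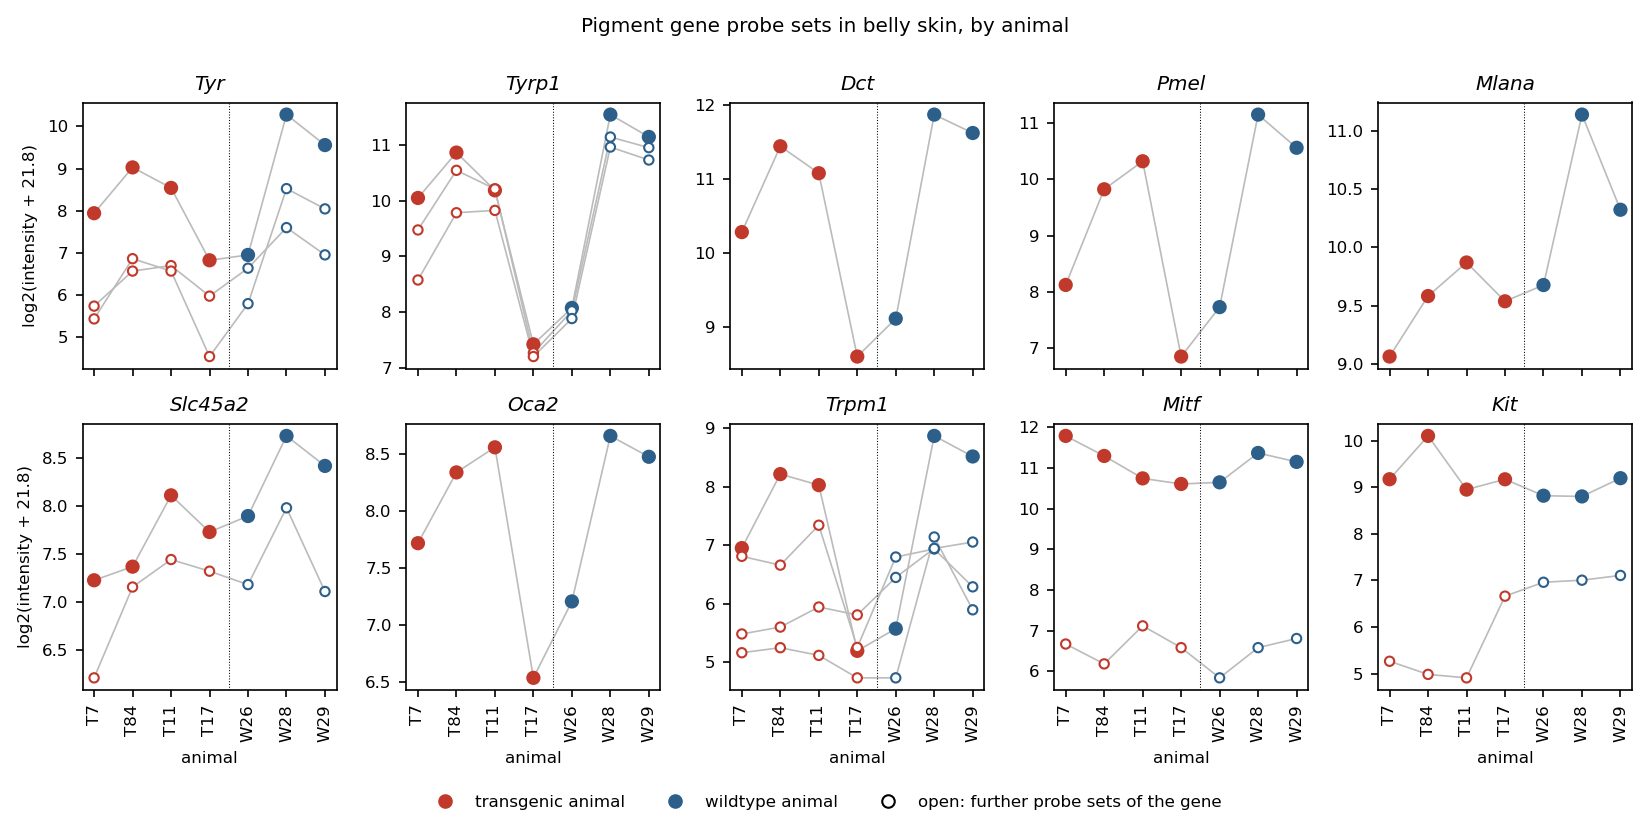
Log2(intensity + 21.8) of each pigment gene in each animal, 1 panel per gene with its own vertical axis; animals are on the horizontal axis, transgenic (T) in red left of the dotted line and wildtype (W) in blue right of it, filled points are the most abundant probe set, open points the others, and grey lines join the points of a probe set only to make them easier to follow. The filled points of Tyr, Tyrp1, Dct, Pmel, Oca2, Trpm1 and Mitf are lowest in transgenic 17 and wildtype 26. In Mlana, Slc45a2 and Kit at least 1 of these animals is not among the lowest 2.

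Mitf encodes the master transcription factor of the lineage, and it is also made from other promoters in mast cells, macrophages and other tissues. On 1455214_at it stood at 11.79, 11.30, 10.74 and 10.61 in transgenic 7, 84, 11 and 17, against 10.65, 11.37 and 11.15 in wildtype 26, 28 and 29. Transgenic 17 and wildtype 26 were lowest here too, but the span was 2.27-fold, and transgenic 7, which stood below 4 animals in the enzymes, was the highest. The difference was 0.05 (standard error 0.30, limma adjusted p 0.961), with a 95% interval of -0.63 to 0.74. It was -0.56 when the Gapdh ratio was a covariate and -0.38 without transgenic 7 and 84. The probe set 1422025_at stood at 6.67, 6.18, 7.12 and 6.58 in transgenic 7, 84, 11 and 17, against 5.84, 6.58 and 6.81 in wildtype 26, 28 and 29. Its difference was 0.23 (limma adjusted p 0.823), and the groups overlapped.

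Kit encodes the receptor for stem cell factor, used by melanocytes and mast cells alike, and the differences of its 2 probe sets had opposite signs. On 1452514_a_at it stood at 9.17, 10.10, 8.95 and 9.17 in transgenic 7, 84, 11 and 17, against 8.82, 8.80 and 9.19 in wildtype 26, 28 and 29. The means were 9.35 ± 0.51 in transgenic animals and 8.94 ± 0.22 in wildtype animals, a difference of 0.41 (standard error 0.28, limma adjusted p 0.584), which was -0.16 when the Gapdh ratio entered the fit. On 1415900_a_at, below the filter, it stood at 5.26, 4.98, 4.91 and 6.66 in transgenic 7, 84, 11 and 17, against 6.96, 7.00 and 7.11 in wildtype 26, 28 and 29. All transgenic animals were below all wildtype animals, whose values lay within a narrow range. The difference was -1.57 (standard error 0.44, unadjusted p 0.00589), with a limma adjusted p of 0.363 in the fit without the filter. Transgenic 7, 84 and 11 stood near the level of an intensity of 0, so their order is not read. The part of RNA quality was not tested.

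Since mast cells also carry KIT, their markers are given beside it. The mean over the 11 mast cell genes with a probe set, 10 of them above the filter, was 8.60, 8.57, 8.12 and 9.38 in transgenic 7, 84, 11 and 17, against 8.53, 7.69 and 8.04 in wildtype 26, 28 and 29. Of the 10 genes tested 9 had a difference above 0, with a median of 0.53 against 0.001 over all probe sets tested, and 0 were called by limma (1 at an unadjusted p under 0.05, smallest adjusted p 0.353). Cpa3, the mast cell carboxypeptidase, stood at 11.57, 11.55, 10.95 and 11.88 in transgenic 7, 84, 11 and 17, against 11.13, 10.36 and 10.77 in wildtype 26, 28 and 29 (difference 0.73). Cma1, the mast cell chymase, had a difference of 0.61 (limma adjusted p 0.461). The part of mast cells in the Kit values was not tested.

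Over the members, 0 of the 17 probe sets above the filter were called between transgenic and wildtype animals at a limma adjusted p under 0.05, where 0.0148% of all 27022 probe sets were called. At an unadjusted p under 0.05 there were 3, 1 each of Tyr, Mlana and Slc45a2, all lower in transgenic animals, against 7.93% of all probe sets lower at that threshold. Differences lay below 0 for 14 of 17, where 49.8% of all probe sets did, and their median was -0.62 against 0.001 over all. That count was 8 without transgenic 17, 16 without wildtype 26 and 15 without transgenic 7 and 84. The median over probe sets counts Tyr and Tyrp1 3 times each. None of the 17 separated the groups with all transgenic animals lower (6.71% of all probe sets did), and 2 of all 20 did, both below the filter (5.57% of all 45037).

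The promoters of the genes whose levels were most alike over the animals, the 3 enzymes and Trpm1, are shown because MITF is known to act on melanocyte genes through an E-box. RefSeq on GRCm38.p6 held promoter windows, 250 bases before to 50 after a start, for 7 of the 10 members, 11 windows in all. No window was matched for Pmel, Mlana and Slc45a2. The letters TCATGTGCT, the core of the M-box, and CATGTG, the E-box contained in it, were searched on both strands, and so were CACGTG, another E-box, and TGACGTCA, the site of cyclic AMP response factors. In the sequences capitals mark the matches, and an E-box match on the other strand reads CACATG.
Tyr, chr7:87493463-87493762, minus strand: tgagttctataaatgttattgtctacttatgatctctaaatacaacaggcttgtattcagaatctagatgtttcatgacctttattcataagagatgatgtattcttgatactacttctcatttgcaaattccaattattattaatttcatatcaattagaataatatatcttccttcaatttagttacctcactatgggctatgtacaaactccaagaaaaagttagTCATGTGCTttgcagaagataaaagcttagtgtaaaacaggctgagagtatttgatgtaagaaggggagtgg
Tyrp1, chr4:80833963-80834262, plus strand: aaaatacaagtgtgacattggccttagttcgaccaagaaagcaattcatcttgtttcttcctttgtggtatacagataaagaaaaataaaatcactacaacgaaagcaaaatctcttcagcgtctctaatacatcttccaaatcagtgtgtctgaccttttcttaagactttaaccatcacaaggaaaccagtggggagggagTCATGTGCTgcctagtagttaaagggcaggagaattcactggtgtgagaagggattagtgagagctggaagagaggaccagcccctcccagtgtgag
Dct, chr14:118052197-118052496, minus strand: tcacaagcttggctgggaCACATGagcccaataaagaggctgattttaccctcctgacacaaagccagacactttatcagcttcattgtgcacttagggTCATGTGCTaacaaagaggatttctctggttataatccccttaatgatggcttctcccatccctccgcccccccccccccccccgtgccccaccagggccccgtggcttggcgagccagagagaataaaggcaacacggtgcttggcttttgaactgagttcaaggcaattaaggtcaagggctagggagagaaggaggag
Trpm1, chr7:64153585-64153884, plus strand: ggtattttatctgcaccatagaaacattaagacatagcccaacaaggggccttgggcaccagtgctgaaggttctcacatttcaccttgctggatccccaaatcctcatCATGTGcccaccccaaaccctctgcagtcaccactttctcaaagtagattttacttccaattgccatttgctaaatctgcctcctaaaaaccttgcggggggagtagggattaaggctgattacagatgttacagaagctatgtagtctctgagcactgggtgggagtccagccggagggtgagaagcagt

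The M-box core stood in the windows of Tyr, Tyrp1 and Dct, with its E-box beginning at position -21, -46 and -150 from the start, and in 0.408% of all 32851 windows of that length. The E-box without the full core was found in both Trpm1 windows, at -141 in the one printed, and in that of Oca2 (position -186, other strand). In all, 6 of the 11 windows held CATGTG, against 14.2% of all windows. The Dct window held a second E-box on the other strand at -232. The second Trpm1 window held CACGTG at -229, as did 7.15% of all windows somewhere in their length. The third Mitf window, chr6:97991533-97991832, held TGACGTCA at -153, as did 1.79% of all windows. The letters searched were not in the Kit windows or the other Mitf windows. The M-box was searched as a motif already known from pigment genes, so its presence in their windows is no result of these data. Enrichment was not tested. These are matches of letters, and binding was not measured.

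The members were then set against the hair keratin level, the mean over 12 keratins of the hair shaft, which follicles make while hair grows. It was 12.42, 12.37, 11.66 and 9.06 in transgenic 7, 84, 11 and 17, against 6.80, 13.04 and 13.20 in wildtype 26, 28 and 29. The animals that were low in the enzymes were thus those low in hair keratins, 1 from each group, and the level did not separate the groups (11.38 ± 1.58 in transgenic animals and 11.01 ± 3.65 in wildtype animals, SD). The widest gap between neighbouring animals was 2.60, or 40.6% of the range, and animals were treated as 1 set. Regulators of the growing follicle, Foxn1 and Shh among them, had a list mean of 10.21, 10.52, 10.39 and 8.01 in transgenic 7, 84, 11 and 17, against 7.90, 10.58 and 10.83 in wildtype 26, 28 and 29. Hair cycle stage is not given in the labels.

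Of the 17 probe sets, 9 had transgenic 17 and wildtype 26 as their lowest animals, as had 10.5% of all probe sets, and 11 had wildtype 28 and 29 as their highest, as had 9.99% of all. Pearson correlation with the keratin level over the 7 animals was above 0 for 16 of 17, with a median of 0.72 against -0.13 over all probe sets. By an exact two-sided permutation test 7 were positive at an unadjusted p under 0.05, where 7.46% of all probe sets were. They came from Tyr, Tyrp1, Dct, Trpm1 and Mitf, and probe sets of the same gene are not independent. After adjustment over all 27022 probe sets 0 members passed, and 0% of all probe sets did. The smallest p that 7 animals allow is 0.000397. Leaving out any 1 animal gave 1 to 3 members at an unadjusted p under 0.05, against 2511 to 3880 of all probe sets. Without transgenic 7 and 84 there were 0, against 2826 of all.

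Tyrp1 on 1415861_at had the highest correlation of the members, r = 0.90 (permutation p 0.0345, adjusted 0.282) with rho = 0.82 (permutation p 0.0341, adjusted 0.322), and r was 0.78 without transgenic 17 and wildtype 26, the animals farthest from the median keratin level. Tyr on 1417717_a_at had r = 0.85 (permutation p 0.0119, adjusted 0.217) and r = 0.69 without these animals, with the same rho. Dct had r = 0.87 (permutation p 0.0401, adjusted 0.293) and r = 0.52 without them. For Trpm1 on 1418935_at r was 0.88 (permutation p 0.0329, adjusted 0.277), and 0.47 without them. The rho of Dct and of this Trpm1 probe set was again 0.82. For these 4 probe sets r was lower over the other 5 animals and of the same sign.

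Pmel had r = 0.75 (permutation p 0.0702, adjusted 0.352) with rho = 0.79 (permutation p 0.0480, adjusted 0.370), and 0.33 without transgenic 17 and wildtype 26. In Oca2 r was 0.79 (permutation p 0.0778, adjusted 0.366) with rho = 0.64 (permutation p 0.139, adjusted 0.514), and 0.15 without them. The relation of Oca2 and, in large part, of Pmel rested on these animals. Mitf on 1455214_at had r = 0.72 (permutation p 0.0393, adjusted 0.291) with rho = 0.71 (permutation p 0.0881, adjusted 0.452), and 0.39 without them. Mlana had r = 0.36 (permutation p 0.410, adjusted 0.739) with rho = 0.43 (permutation p 0.354, adjusted 0.701), and 0.56 without them. Kit on 1452514_a_at had r = 0.30 (permutation p 0.501, adjusted 0.797) with rho = 0.29 (permutation p 0.556, adjusted 0.802), and -0.11 without them. Slc45a2 gave r of 0.21 and -0.01 on its 2 probe sets (permutation p 0.683 and 0.898, adjusted 0.890 and 0.971; rho 0.36 and -0.25). Without transgenic 7 and 84, the animals with the highest Gapdh ratios, r was 0.75 for Mlana and 0.82 for Slc45a2 on 1451055_at. It was 0.92 there for Tyr on 1417717_a_at and 0.91 for Tyrp1 on 1415861_at. In that setting 0 of 17 had an unadjusted permutation p under 0.05, and the part of RNA quality was not tested. Without transgenic 17 and wildtype 26, 14 of 17 correlations were above 0, a share that was not counted over all probe sets.

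**Figure D2:**
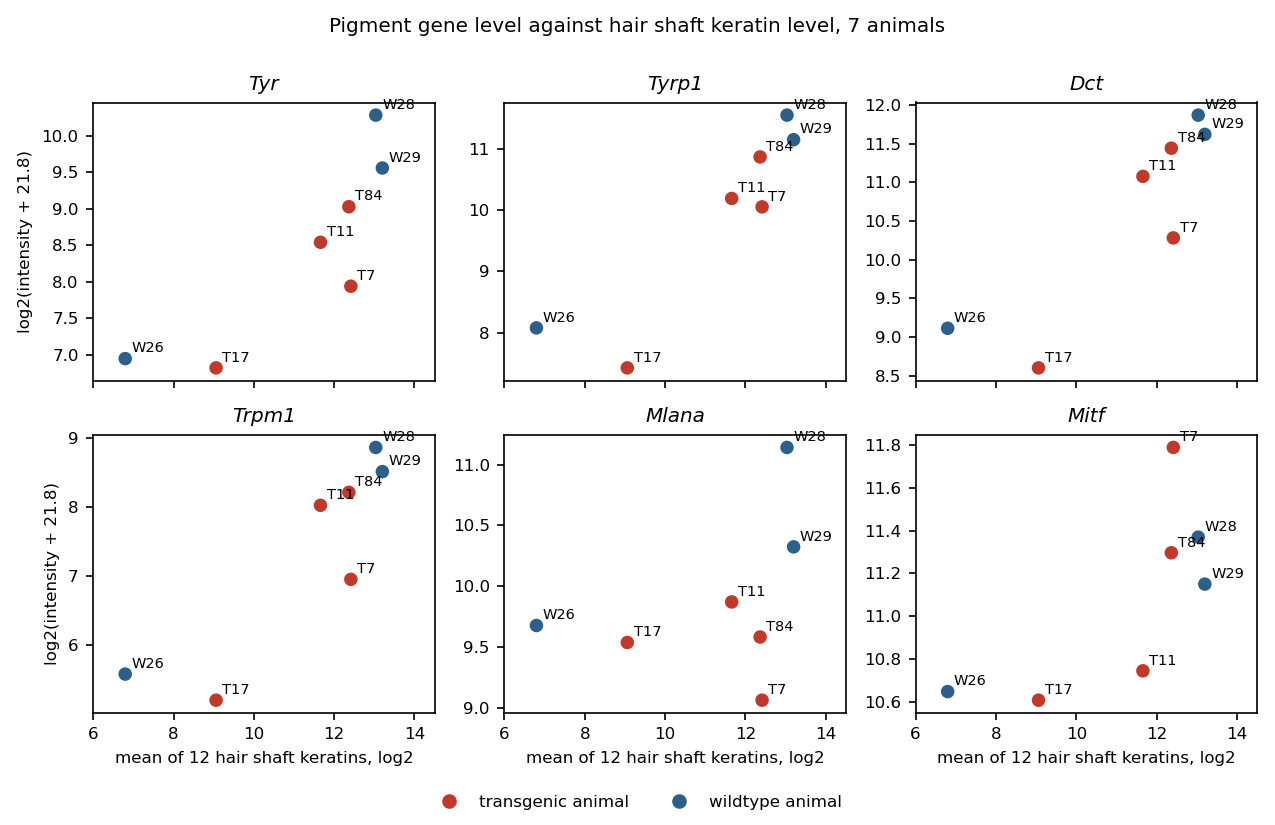
Level of 6 pigment genes (vertical axis, log2(intensity + 21.8), most abundant probe set) against the mean of 12 hair shaft keratins (horizontal axis, log2) in 7 animals, transgenic (T) in red and wildtype (W) in blue. Tyr, Tyrp1, Dct and Trpm1 stand lowest in transgenic 17 and wildtype 26, whose keratin levels were 9.06 and 6.80, while Mlana follows the keratin level less closely (r = 0.36, and 0.75 without transgenic 7 and 84) and Mitf spans 2.27-fold.

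The same relation was fitted in limma as a slope on the keratin level beside the group, a fit chosen after the values had been seen. The slope was above 0 for 17 of 17 probe sets, a share that was not counted over all probe sets. The smallest was 0.005 (standard error 0.083), for Slc45a2 on 1437430_at. Slopes were called for 7, all positive, where 2.7% of all probe sets were called positive. Those 7 came from Tyr, Tyrp1, Dct and Trpm1 alone. Tyrp1 on 1415861_at had a slope of 0.61 log2 units per log2 unit of keratin (standard error 0.08, limma adjusted p 0.00437). Slopes were 0.48 for Tyr on 1417717_a_at and 0.48 for Dct (limma adjusted p 0.00819 and 0.0140), and 0.55 for Trpm1 on 1418935_at (limma adjusted p 0.0177). Pmel, at 0.54, missed the threshold (limma adjusted p 0.0508), and so did Oca2 at 0.27 (0.0767), Mitf at 0.13 (0.175), Mlana at 0.12 (0.336) and Kit at 0.05 (0.711). Leaving out transgenic 17 brought the count of 7 down to 2. It was 1 without wildtype 26, 3 without wildtype 29, and 8 when transgenic 7 and 84 were both left out. Over all probe sets the called slopes in these settings numbered 338, 179, 261 and 1597, in the same order. The count thus moved over the whole array as well.

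With the keratin level as a covariate the group difference of the enzymes kept its sign and had a smaller error. No wildtype animal (6.80, 13.04 and 13.20) lay within the keratin range of the transgenic animals, 9.06 to 12.42. The fit therefore rests on a straight line over keratin level and not on animals of equal level. In it 14 of 17 differences were below 0, with a median of -0.76 against 0.002 over all probe sets. None of the 17 was called (0.137% of all probe sets were). At an unadjusted p under 0.05 there were 7, all lower in transgenic animals, against 9.99% of all probe sets lower at that threshold. They came from Tyr, Tyrp1, Mlana and Slc45a2 alone, and probe sets of the same gene are not independent. Tyr on 1456095_at had a difference of -1.76 (standard error 0.43, unadjusted p 0.00308) with a limma adjusted p of 0.156, the smallest among the members. On 1417717_a_at the difference of Tyr was -1.02, on 1415862_at that of Tyrp1 was -1.20, and that of Mlana was -0.91 (limma adjusted p 0.192, 0.200 and 0.193). Dct stood at -0.69 and Pmel at -1.23 (limma adjusted p 0.349 and 0.311), while Mitf stood at 0.01 and Kit at 0.39 (0.991 and 0.481). Adding the Gapdh ratio to this fit moved Pmel to -0.18, Mlana to -0.40, Slc45a2 on 1451055_at to -0.09, where it had been -0.76, and Tyrp1 on 1415862_at to -0.61. Leaving out wildtype 26 moved Dct to -0.18 and Tyrp1 on 1415861_at to -0.12, where it had been -0.85. Without transgenic 11, Tyr on 1456095_at, Tyrp1 on 1415862_at and Pmel were called lower (limma adjusted p 0.0325, 0.0254 and 0.0414). The share of all probe sets called in that fit is not given here, so these calls are not read as particular to the members. In the fit with group only, 280 of all probe sets were called without transgenic 11, against 4 when that animal was kept.

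**Figure D3:**
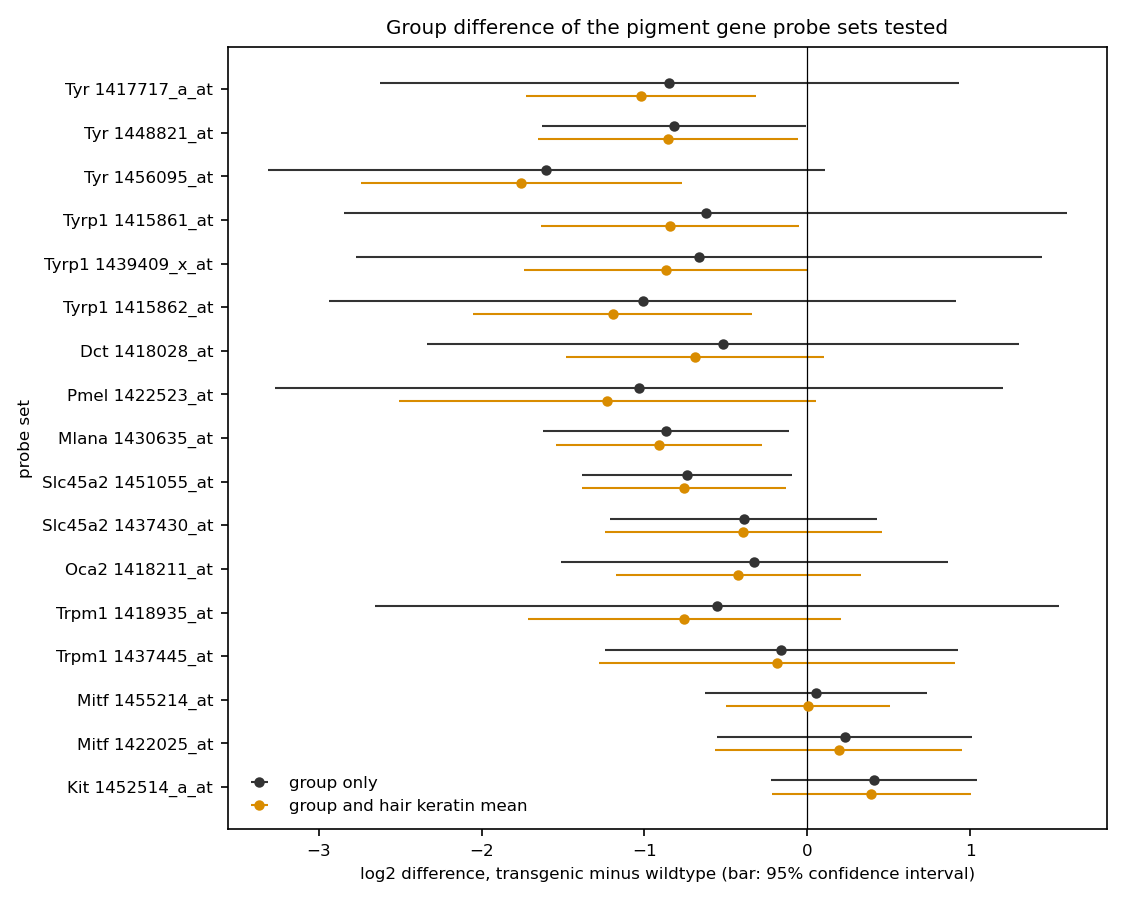
Log2 difference, transgenic minus wildtype (horizontal axis), of the 17 pigment gene probe sets above the filter (vertical axis), from the limma fit with group only (black) and with group plus hair keratin level (orange); points are estimates and bars 95% confidence intervals. Differences are below 0 for 14 of 17 in both fits, the bars of the enzymes, Pmel and Trpm1 1418935_at are shorter with the covariate, and none was called after adjustment.

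Genes that act around the members were counted from lists. Of the ligands that reach melanocytes 4 of 7 were tested, with 0 called in either direction by limma, 0 at an unadjusted p under 0.05, and a median difference of 0.01. Kitl, the ligand of KIT, stood at 11.00, 11.87, 10.77 and 10.99 in transgenic 7, 84, 11 and 17, against 10.95, 11.44 and 11.30 in wildtype 26, 28 and 29 (difference -0.07, limma adjusted p 0.939). Edn3, endothelin 3, a growth signal for melanoblasts, had a difference of 0.08 (limma adjusted p 0.956), and its transgenic values overlapped the wildtype ones. Neither had transgenic 17 and wildtype 26 as its lowest animals. Edn1, endothelin 1, which keratinocytes make and melanocytes respond to, stood at 8.57, 8.25, 8.44 and 8.10 in transgenic 7, 84, 11 and 17, against 8.15, 8.87 and 8.76 in wildtype 26, 28 and 29 (difference -0.25, limma adjusted p 0.679). It had the low and the high animals of the enzymes.

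Of the receptors and their partners 6 of 6 were tested, with 0 called by limma, 1 at an unadjusted p under 0.05 (Mrap, higher by 0.57, adjusted p 0.382) and a median difference of 0.003. Mc1r, the melanocortin receptor that turns synthesis towards eumelanin, stood at 6.53, 7.46, 7.68 and 4.91 in transgenic 7, 84, 11 and 17, against 6.59, 8.48 and 7.92 in wildtype 26, 28 and 29. Transgenic 17 was low, as in the enzymes, but wildtype 26 stood above transgenic 7 (difference -1.02, limma adjusted p 0.587). Ednrb, the receptor of endothelin 3 and also a gene of other skin cells, stood at 11.82, 12.05, 11.69 and 11.73 in transgenic 7, 84, 11 and 17, against 10.85, 11.65 and 11.80 in wildtype 26, 28 and 29 (difference 0.39, limma adjusted p 0.531). Only wildtype 26 stood apart there.

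Of 10 transcription factors that act in melanocytes 9 were tested, with 0 called by limma, 1 at an unadjusted p under 0.05 (Zeb2, higher by 0.61, adjusted p 0.363) and a median difference of -0.12. Sox10, which switches on Mitf and is also made by Schwann cells, stood at 7.32, 7.79, 7.87 and 7.93 in transgenic 7, 84, 11 and 17, against 8.04, 7.69 and 7.14 in wildtype 26, 28 and 29. It was highest in wildtype 26 and lowest in wildtype 29, with r = -0.72 against the hair keratin level (permutation p 0.00675, adjusted 0.183). Tfap2a, a factor of melanocytes and keratinocytes, was by contrast lowest in transgenic 17 and wildtype 26, at 11.19, 11.51, 11.22 and 10.63 in transgenic 7, 84, 11 and 17, against 10.63, 11.58 and 11.56 in wildtype 26, 28 and 29. Lef1, a factor of Wnt signalling in melanocytes and hair, stood at 8.83, 9.84, 9.41 and 6.31 in transgenic 7, 84, 11 and 17, against 6.75, 9.23 and 9.68 in wildtype 26, 28 and 29. Its lowest animals were the same. Tfap2a and Lef1 were picked after their values were seen. No other tested factor of the list had transgenic 17 and wildtype 26 as its lowest animals. Among these were Pax3, Creb1 and Tfe3, with differences of -0.57, 0.20 and -0.25 (limma adjusted p 0.455, 0.600 and 0.631). The 8 Schwann cell genes with a probe set, of 11 listed, had mean levels of 9.38 to 9.91 in transgenic animals and 9.50 to 10.15 in wildtype animals, and its part in the Sox10 values was not tested.

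Of 8 further proteins of the melanosome 4 were tested, with 0 called by limma, 1 at an unadjusted p under 0.05 and a median difference of -0.06. That 1 was Gpnmb, a relative of PMEL that macrophages also make, at 10.77, 10.88, 11.50 and 11.91 in transgenic 7, 84, 11 and 17, against 12.31, 12.35 and 11.94 in wildtype 26, 28 and 29. Its groups did not overlap, by a margin smaller than the spread within either, with a difference of -0.93 (standard error 0.28, limma adjusted p 0.322). The lowest animals were transgenic 7 and 84, whose Gapdh ratios were 13.8 and 17.2, and the part of RNA quality was not tested. The macrophage list, 10 of 10 genes tested, had mean levels of 10.69 to 11.41 in transgenic animals and 10.63 to 11.82 in wildtype animals, and its part was not tested. Gpr143, a melanosome receptor that was below the filter, stood at 6.16, 7.19, 6.05 and 4.81 in transgenic 7, 84, 11 and 17, against 4.94, 7.94 and 7.42 in wildtype 26, 28 and 29, with the low animals of the enzymes. Of 25 genes of melanosome biogenesis and transport 23 were tested, 13 above 0 and 10 below, with 0 called by limma, 1 at an unadjusted p under 0.05 (Rabggta, -0.52, adjusted p 0.375) and a median of 0.01. Rab27a and Mlph, which tie melanosomes to the actin motor, had differences of 0.27 and -0.50 (limma adjusted p 0.701 and 0.579). Their r with the hair keratin level was -0.84 and -0.25 (permutation p 0.000397 and 0.676, adjusted 0.0932 and 0.887). Mfsd12, of the further melanosome proteins, had r = -0.82 (permutation p 0.0135, adjusted 0.223), and 2 of the 4 tested there were above 0. Over the 23 transport genes tested the median r was -0.40, against -0.13 over all probe sets, and 6 were above 0. Most of these transport genes also serve lysosomes and granules of other cells.

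Likeness to the pigment profile was measured for each of the 27022 probe sets as the root mean square difference between its levels and the mean of Tyr, Tyrp1, Dct and Pmel, each centred on its own mean over the 7 animals. Trpm1 on 1418935_at, which had no part in the profile, ranked 1 of all, at 0.13 log2 units. Oca2 ranked 69, Mlana 1047, Slc45a2 2846, Mitf 3229 and Kit 10458. On further probe sets Tyrp1 ranked 2 and 4, Tyr 22 and 895, Trpm1 2227, Mitf 5275 and Slc45a2 6153. The genes most like it outside the members were Ptgds, which makes prostaglandin D2, at 0.30, Foxn1, a transcription factor of hair keratinocytes, at 0.41, and Fads2, a fatty acid desaturase, Serpina9, a serpin, and Bnc2, a zinc finger protein, at 0.42 each. Ptgds stood at 9.96, 10.70, 10.01 and 8.20 in transgenic 7, 84, 11 and 17, against 8.52, 11.32 and 11.30 in wildtype 26, 28 and 29. Foxn1 stood at 9.58, 9.55, 9.55 and 7.41 in transgenic 7, 84, 11 and 17, against 7.51, 10.69 and 10.86 in wildtype 26, 28 and 29. Their low and high animals were those of the enzymes, which follows from picking them by likeness over the same animals.

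**Figure D4:**
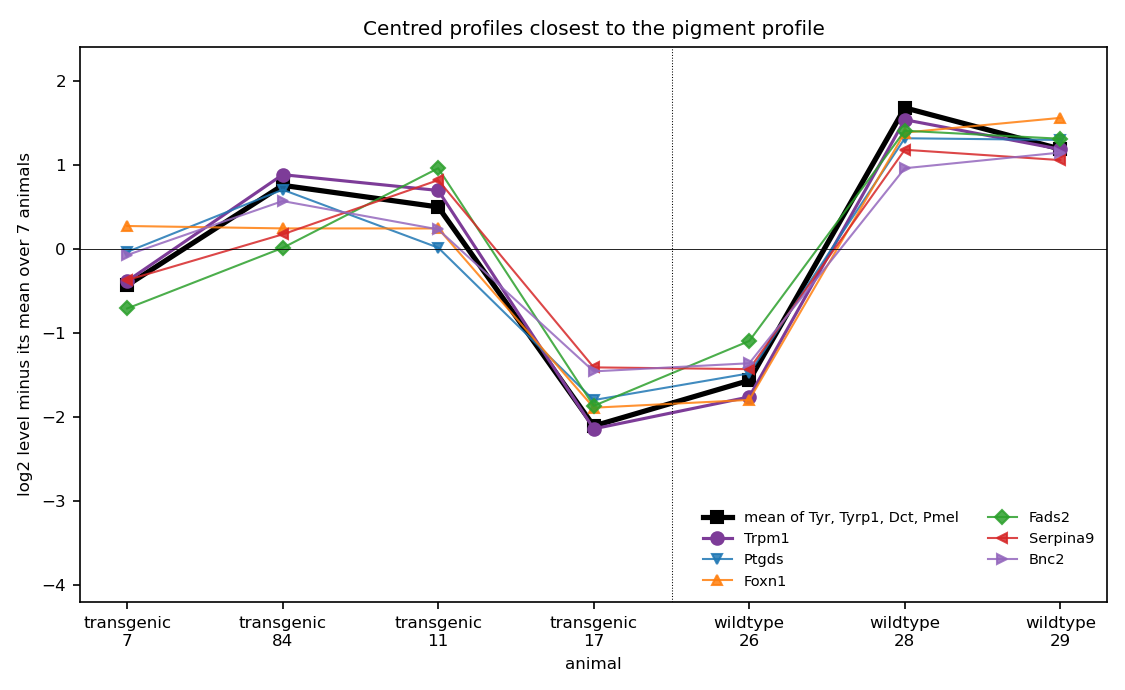
Log2 level minus its mean over 7 animals (vertical axis) in each animal (horizontal axis, transgenic left of the dotted line and wildtype right of it) for the mean of Tyr, Tyrp1, Dct and Pmel (black), Trpm1 1418935_at and the 5 genes with the smallest root mean square difference from that mean. Trpm1 differs from it by 0.13 log2 units (root mean square), and all 7 lines are lowest in transgenic 17 and wildtype 26. For the 5 genes this follows from picking them by likeness over the same animals.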

How the data were processed

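The authors deposited linear intensity per probe set, computed with MAS5 per the submitters' processing notes, and the values show scaling to a common trimmed mean. No detection calls were used here. Genes were named from the array annotation. The value 21.8 added before taking log2 was the 20th percentile of the whole table. The 2 arrays of wildtype 29 were averaged, which gave 7 animals, and p-values measure the spread between animals. Probe sets with a mean below 6.45, the 40th percentile, were left out of the tests, which left 27022 for 13559 genes. The group comparison was a linear model with group as its only term in limma 3.58.1 (R 4.3.3), moderated with an intensity trend and adjusted by Benjamini-Hochberg over all of them. Keratin correlations used exact permutation over 5040 orders of the animals, doubled from the smaller side and adjusted over all probe sets tested, not over the members alone as first planned. The tests were tested on simulated data. All members of the pigment list are reported. Other genes were named by smallest unadjusted p within each list, from a list of known melanocyte genes, or by likeness to the pigment profile. Not every gene that this rule names is printed. Tfap2a and Lef1 were named outside the rule, after their values were seen. The members and lists were chosen with earlier results of these data known. Alternatives were normalization, pseudocount, filter, covariates, arrays and animals left out.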

Additional observations from a re-analysis of the deposited data

How the results depend on the processing

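No member was called between the groups under any of the alternatives without the keratin covariate. No paired analysis was possible because the animal numbers do not recur between the groups. With 7 animals the intervals of single members span several-fold, and values near an intensity of 0 have no order. The cause of the moves below was not tested, except that a stricter filter and 1 probe set per gene leave fewer probe sets.

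The 14 members below 0 became 9 of 11 with the filter at the 60th percentile, 8 of 10 with 1 probe set per gene, and 8 to 16 with each animal left out. Over all probe sets the 4 calls became 10 with a pseudocount of 87.2, 2 with the stricter filter, 11 with sex as a covariate, 0 with the Gapdh ratio, 37 with the keratin level, 9 with the second array of wildtype 29, 28 with its arrays as separate samples, 0 with 1 probe set per gene, and 0 to 280 with each animal left out. With each animal left out, member calls with the keratin covariate were 0 to 3. Called keratin slopes were then 1 to 9 among the members and 179 to 2230 over all probe sets. The 7 members with an unadjusted keratin p under 0.05 became 4 against keratin-associated proteins, 0 without transgenic 7 and 84, and 1 to 3 with each animal left out.

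Signs turned in 19 of 377 alternative values for single members in the group comparison, 15 of 237 with the keratin covariate and 11 of 237 for the keratin correlation. With each animal left out, the group difference was -1.72 to 0.11 for Tyrp1 1415861_at (0.11 without transgenic 17, 0.020 without wildtype 28) and, turning without transgenic 17, -1.67 to 0.037 for Tyrp1 1439409_x_at, -1.39 to 0.066 for Dct, -0.78 to 0.091 for Oca2, -1.60 to 0.078 for Trpm1 1418935_at (0.052 without wildtype 28) and -0.43 to 0.26 for Trpm1 1437445_at. It was -0.17 to 0.22 for Mitf 1455214_at and -0.056 to 0.43 for Mitf 1422025_at. With the Gapdh ratio as a covariate it was 0.18 for Slc45a2 1437430_at, 0.061 for Trpm1 1437445_at, -0.56 for Mitf 1455214_at and -0.16 for Kit. The Trpm1 probe set gave 0.069 with the first array of wildtype 29, and the Mitf one -0.043 with sex and -0.38 without transgenic 7 and 84.

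With the keratin covariate, leaving out each animal gave -0.65 to 0.049 for Oca2, -0.57 to 0.73 for Trpm1 1437445_at, -0.17 to 0.30 for Mitf 1455214_at and -0.087 to 0.38 for Mitf 1422025_at. Adding the Gapdh ratio gave 0.19 for Slc45a2 1437430_at, 0.10 for Trpm1 1437445_at, -0.51 for Mitf 1455214_at and -0.15 for Kit. That Mitf probe set was also -0.021 and -0.024 when arrays were normalized by quantiles and by cyclic loess, -0.0032 with a pseudocount of 5.45 and -0.32 without transgenic 7 and 84. The keratin correlation with each animal left out was -0.019 to 0.41 for Slc45a2 1451055_at, -0.32 to 0.32 for Slc45a2 1437430_at, -0.16 to 0.69 for Trpm1 1437445_at and -0.0013 to 0.75 for Mitf 1422025_at. For Slc45a2 1437430_at it was 0.070 and 0.11 when arrays were normalized by quantiles and by cyclic loess, 0.023 with a pseudocount of 87.2, 0.018 against the keratin median and 0.43 without transgenic 7 and 84.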

Other observations

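Ngfr, the low-affinity nerve growth factor receptor, stood at 7.45, 7.69, 7.61 and 8.15 in transgenic 7, 84, 11 and 17, against 8.68, 8.60 and 8.63 in wildtype 26, 28 and 29. All transgenic animals were below all wildtype animals, with a difference of -0.91 (standard error 0.21, unadjusted p 0.00181, limma adjusted p 0.294). It was the gene with the smallest p of the Schwann cell list, of which 7 of 11 genes were tested and 0 called. C1qa, a complement chain made by macrophages, stood at 7.93, 7.80, 10.93 and 9.73 in transgenic 7, 84, 11 and 17, against 11.90, 11.00 and 10.60 in wildtype 26, 28 and 29. The low animals were those with the highest Gapdh ratios, transgenic 7 and 84 (13.8 and 17.2), and the group difference of -2.07 had a limma adjusted p of 0.357.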
